A study of Mus musculus with 7 samples.

Results

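Leukocyte chemoattractant receptors are the subject here: 8 genes, Cxcr4, Gpr183, S1pr4, Ccr6, Cxcr3, Ccr4, Cxcr6 and Ccr1, chosen by name as receptors that position lymphoid and myeloid cells in the spleen. They are 8 of the 54532 genes counted, and all 8 passed the filter on low counts that left 15795 genes to test. RNA was sequenced from mouse spleen in 7 libraries labelled as sorted follicular helper T (Tfh) cells, a CD4 lineage that supports B cell selection in germinal centres. The wild-type group held 3 libraries, and the other group held 4 libraries labelled Mst1 knockout, whose titles write the genotype as Mst1∆CD4. All 7 came from mice sensitised with ovalbumin by the intraperitoneal route, and every library is labelled a biological replicate. The sources used here give no strain, age or sex. The ∆CD4 notation is commonly used for a deletion driven from Cd4, in which B cells, myeloid cells and red cell precursors keep the gene, so transcripts of such cells in a library would carry an intact locus.

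The receptors are G protein-coupled receptors that cross the membrane in a bundle of helices and signal mainly through inhibitory G proteins to steer cell migration. Chemokine receptors bind small secreted proteins, whereas GPR183 binds oxysterols and S1PR4 binds the lipid sphingosine-1-phosphate. In the spleen, such receptors sort B cells, T cells, dendritic cells and monocytes between follicles, T cell zones, bridging channels and red pulp. MST1, a kinase of the Hippo pathway, acts downstream of chemokine receptors in mouse lymphocytes, where it is needed for integrin-dependent adhesion and migration.

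The sequences upstream of 3 of the genes are shown because these receptors mark the highest level (Cxcr4), the largest fall (Ccr4) and the one rise (Ccr1) in the data. Each line gives the 250 bases before the RefSeq start (GRCm38.p6), 5′ to 3′ on the strand of the gene, with every match to a searched motif in capitals. The windows are chr1:128592300-128592549 for Cxcr4, chr9:114496545-114496794 for Ccr4 and chr9:123968693-123968942 for Ccr1, all on the minus strand. The Ccr4 window lies inside the gene as the deposited table draws it (114490316 to 114504916), whose 5′ end lies further upstream.
Cxcr4: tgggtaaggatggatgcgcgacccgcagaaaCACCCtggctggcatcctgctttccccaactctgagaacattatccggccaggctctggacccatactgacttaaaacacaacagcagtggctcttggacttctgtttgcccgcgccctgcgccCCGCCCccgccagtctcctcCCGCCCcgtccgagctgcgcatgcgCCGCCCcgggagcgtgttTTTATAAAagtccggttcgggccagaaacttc
Ccr4: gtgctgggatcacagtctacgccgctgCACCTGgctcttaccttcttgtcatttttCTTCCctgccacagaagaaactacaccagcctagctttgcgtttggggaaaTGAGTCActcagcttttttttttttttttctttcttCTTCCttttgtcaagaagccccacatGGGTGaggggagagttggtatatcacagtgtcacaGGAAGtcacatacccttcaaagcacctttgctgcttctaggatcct
Ccr1: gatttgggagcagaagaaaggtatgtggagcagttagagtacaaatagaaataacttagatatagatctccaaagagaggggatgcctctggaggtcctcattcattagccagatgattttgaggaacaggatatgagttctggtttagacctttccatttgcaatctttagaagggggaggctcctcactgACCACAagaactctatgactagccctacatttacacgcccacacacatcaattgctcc
The Cxcr4 window had 61.2% G and C and 19 CpG pairs, against medians of 52.4% and 6 over 32851 such windows of 27025 genes. It held 3 copies of the GC box bound by SP and KLF factors (GGGCGG, in 32.7% of all windows), a CACCC box of KLF factors (CACCC, 52.0%) and overlapping matches to a TATA box in both directions (TATAAA, 12.4%). The Ccr4 window, with 46.4% G and C, held 3 ETS core motifs (GGAAG, 64.1%), 1 AP-1 motif (TGANTCA, 6.75%), 1 CACCC box and 1 E-box (CAGGTG, 17.2%). The Ccr1 window, with 43.6% G and C, held 1 match, to the RUNX motif (TGTGGT, 14%). Both strands were searched, and matches are letters in a window, not binding sites.

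The other receptors had windows with 32.0% to 48.0% G and C, so the Cxcr4 window was the one above the median. RUNX matches also stood in the windows of Cxcr6 and Cxcr3, and ETS matches in those of Gpr183, Cxcr3 and Ccr6. The NFAT core (GGAAAA, 20.4% of all windows) stood before S1pr4. S1pr4 and Cxcr3 also held an E-box, and S1pr4 a CACCC box. The Cxcr3 window overlaps an annotated exon by 122 bases, as the deposited gene reaches to 101734269. All its matches except the ETS match at -229 lie within those bases. The motif of TEAD factors, the DNA-binding partners at the end of the Hippo pathway (GGAATG, 12.6%), matched before 1 receptor, Ccr6. The interferon response element (2.98%), TGACGTCA (cyclic AMP response, 1.55%), GTAAACA (FOXO, 3.17%) and the NF-kappaB motif (1.41%) matched in no window of the 8 genes, for which 9 windows were listed because Ccr6 has 2 starts.

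In the deposited annotation (GRCm38), the 8 genes lie on 6 chromosomes. Cxcr4 (ENSMUSG00000045382) spans 128588199 to 128592293 of chromosome 1, Gpr183 (ENSMUSG00000051212) 121952551 to 121965195 of chromosome 14 and S1pr4 (ENSMUSG00000044199) 81497747 to 81500132 of chromosome 10, all on the minus strand. Ccr6 (ENSMUSG00000040899) spans 8236043 to 8257141 of chromosome 17 on the plus strand, and Cxcr3 (ENSMUSG00000050232) 101731535 to 101734269 of chromosome X on the minus strand. Ccr4 (ENSMUSG00000047898) and Ccr1 (ENSMUSG00000025804), both on the minus strand, and Cxcr6 (ENSMUSG00000048521), on the plus strand, share chromosome 9.

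The libraries held between 16789158 and 18375275 counts. Stk4, the gene that encodes MST1, had 316 to 336 CPM (read counts per library size, TMM-adjusted) in the wild-type group and 287 to 302 CPM in the knockout libraries, a log2 fold change of -0.16 (SE 0.08, edgeR adjusted p = 0.225). The Stk4 ranges did not overlap (exact permutation p = 0.0286). Counts outside a deleted part would still be included. Stk3, which encodes the related kinase MST2, had 11.8 ± 2.53 and 16.3 ± 3.48 CPM (SD, n = 3 and 4, edgeR adjusted p = 0.15). A different gene has the symbol Mst1 (macrophage stimulating 1), and it was lower, at 9.41 ± 2.08 and 1.39 ± 0.42 CPM (log2 fold change -2.75, edgeR adjusted p = 0.000844). The deletion was thus not visible as a loss of Stk4 counts, and groups are called by their labels.

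Markers of many other spleen cells were present beside those of Tfh cells, and several marker lists moved with the labels. Summed over 10 genes, T cell markers ran from 450.5 to 748 CPM in the wild-type group and from 128 to 227 CPM in the knockout libraries, with all 10 lower (edgeR). The 8 Tfh markers ran from 366 to 457 and from 146 to 257 CPM, with 7 lower. B cell markers (10 genes) summed to 4590.5 to 6069 CPM and 1577 to 3708 CPM, with 4 lower. The 8 neutrophil markers summed to 13570.1 to 16792 and 8005 to 12037 CPM (4 lower, 1 higher), and the 8 monocyte markers to 3177 to 4354 and 4394 to 7719 CPM (4 higher, 1 lower). Erythroid markers, 8 of 8 higher, went from 161 to 196 up to 687 to 1594 CPM. No marker was at 0 in all libraries, and 1, the platelet gene Gp1bb, was at 0 in some. In these bulk samples, fewer cells of a type and less RNA per cell cannot be told apart.

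**Figure D1:**
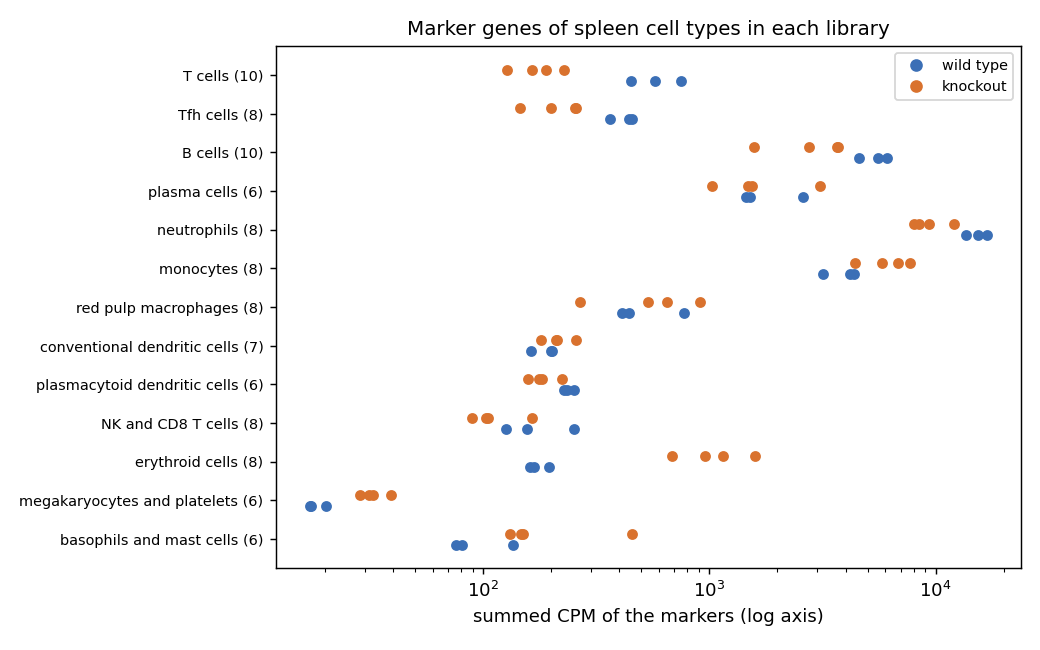
Summed CPM of marker genes of 13 spleen cell types (log axis), with the number of genes of each list in brackets and 1 point per library. T cell, Tfh and B cell markers were lower in all 4 knockout libraries than in all 3 wild-type libraries, and monocyte and erythroid markers were higher.

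Among the 8 receptors, 5 were lower and 1 was higher in the knockout libraries, and 2 did not pass the test. Cxcr4, Gpr183, S1pr4, Cxcr3 and Ccr4 fell and Ccr1 rose (edgeR quasi-likelihood test, Benjamini-Hochberg adjusted p under 0.05 over all tested genes). The background share of tested genes that passed was 15.5%, with 6.83% lower and 8.71% higher, and 6 of 8 is 75.0%. The median log2 fold change was -0.68 over the 8 receptors and -0.002 over all tested genes. The library ranges of the groups did not overlap for the same 6 receptors, as for 30.0% of all tested genes (14.7% with the knockout libraries lower). The number called lower depended on single libraries: it was 1 when wild-type replicate 2 was left out, and 3 when wild-type replicate 1 or 3 or knockout replicate 1 or 2 was left out. Ccr4 and Ccr1 passed whichever library was left out.

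**Figure D2:**
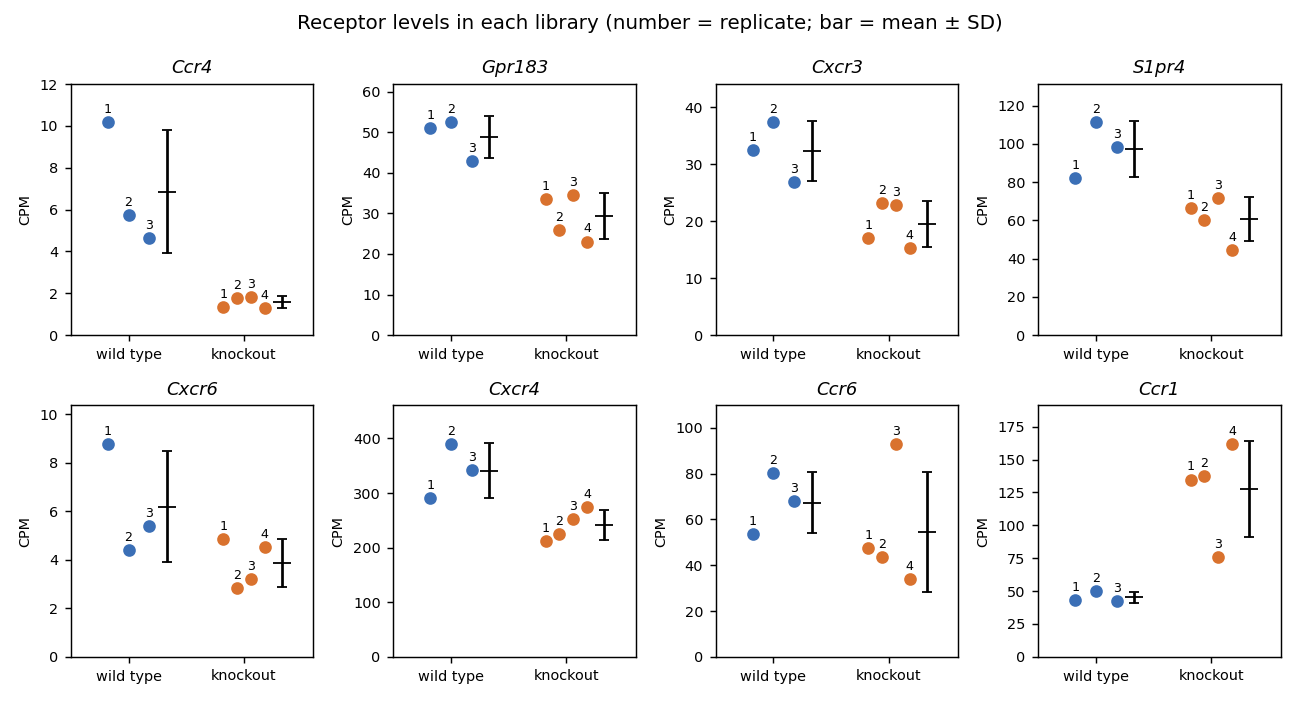
CPM of each receptor in each library, with replicate numbers beside the points, the mean ± SD as bars (n = 3 and 4) and vertical axes from 0. The panels run from Ccr4, the largest fall, to Ccr1, which lay between 42.4 and 50.2 CPM in the wild-type and between 75.7 and 162 CPM in the knockout libraries.

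Cxcr4 encodes the receptor for CXCL12, which holds cells in bone marrow and in the dark zone of germinal centres. Its levels were 291, 390.2 and 342 CPM in wild-type replicates 1 to 3, and 212, 226, 252 and 274 CPM in knockout replicates 1 to 4. The groups did not overlap, with 291 and 274 CPM the closest values. Cxcr4 fell by 0.50 on the log2 scale (SE 0.13, edgeR adjusted p = 0.0322), to 0.706 of the wild-type level. The exact two-sided permutation test gave p = 0.0286, the smallest it can give with 3 and 4 libraries. Leaving out wild-type replicate 2 (edgeR adjusted p = 0.113) or 3 (0.0929), or knockout replicate 1 (0.0619) or 2 (0.0915), ended the call.

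Gpr183, also called EBI2, guides activated B cells, T helper cells and dendritic cells to the outer follicle and bridging channels. It had 51.1, 52.5 and 43.0 CPM in the wild-type group and 33.5, 25.9, 34.6 and 23.1 CPM in the knockout libraries. The groups did not overlap, and knockout replicates 2 and 4 were the lower pair. Gpr183 fell by 0.74 (SE 0.16, edgeR adjusted p = 0.0162), with a 95% interval of the log2 fold change from -1.09 to -0.38. Leaving out wild-type replicate 1 or 2 ended the call (edgeR adjusted p = 0.0584 and 0.0712). An intron of Ubac2 on the opposite strand spans the gene with no shared exon, and Ubac2 stood at 69.4 and 62.3 CPM.

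S1pr4, a sphingosine-1-phosphate receptor found mainly on blood and lymphoid cells, had 82.2, 111 and 98.6 CPM in the wild-type libraries. The knockout libraries had 66.3, 60.4, 71.6 and 44.5 CPM, all lower, with replicate 4 the lowest. S1pr4 fell by 0.68 (SE 0.17, edgeR adjusted p = 0.0266). The call was lost without wild-type replicate 2 (edgeR adjusted p = 0.111), wild-type replicate 3 (0.0846) or knockout replicate 2 (0.0693). Beside Cxcr4, Gpr183 and S1pr4, B cell markers (4 of 10 lower, median log2 fold change -0.90) and T cell markers (10 of 10 lower) fell. Neutrophil markers (4 of 8 lower, 1 higher) fell too. Within the knockout group, B cell and T cell marker sums were lowest in replicate 4 (1577 and 128 CPM), as were Gpr183 and S1pr4. Cxcr4 (274 CPM) and the neutrophil sum (12037 CPM) were the highest of the knockout group in that library. So were the plasma cell, monocyte, erythroid, megakaryocyte and platelet, and basophil and mast cell sums. Among knockout libraries, Cxcr4 was lowest in replicate 1 and the neutrophil sum in replicate 2. Among wild-type libraries, Cxcr4 was highest in replicate 2 (390.2 CPM), where the neutrophil sum was lowest (13570.1 CPM). The part of B cells, T cells and neutrophils in the 3 results was not tested.

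Ccr6, the receptor for CCL20 on B cells, dendritic cells and type 17 helper T cells, did not pass. It had 53.6, 80.4 and 68.2 CPM in the wild-type group and 47.5, 43.7, 93.0 and 34.2 CPM in the knockout libraries. Knockout replicate 3 was the highest of all 7 libraries, and the other knockout libraries were below every wild-type library. The log2 fold change was -0.30 (95% interval -1.09 to 0.49, edgeR adjusted p = 0.588), and without knockout replicate 3 it was -0.69 and passed (edgeR adjusted p = 0.0361). B cell markers summed to 3659, 2753, 3708 and 1577 CPM in knockout replicates 1 to 4, and their part in the spread of Ccr6 was not tested.

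Cxcr3 directs type 1 helper T cells, CD8 T cells and natural killer cells to the ligands CXCL9 and CXCL10. Its levels were 32.4, 37.4 and 26.9 CPM in the wild-type group and 17.0, 23.1, 22.8 and 15.2 CPM in the knockout libraries. The lowest wild-type value, 26.9 CPM, was above the highest knockout value of 23.1 CPM. Cxcr3 fell by 0.72 (SE 0.18, edgeR adjusted p = 0.0285), a call lost without wild-type replicate 1 (0.078) or 2 (0.115) or knockout replicate 1 (0.0609). The 8 markers of natural killer and CD8 T cells, of which 2 were lower, summed to 126 to 252 CPM and 89.3 to 164 CPM. T cell markers, 10 of 10 lower, summed to 450.5 to 748 CPM and 128 to 227 CPM, with a median log2 fold change of -1.65. The part of these cells in the fall of Cxcr3 was not tested.

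Ccr4, which binds CCL17 and CCL22 and is a receptor of type 2 helper and regulatory T cells, fell furthest of the 8. It had 167, 99 and 82 counts in the wild-type libraries, or 10.2, 5.75 and 4.64 CPM. The knockout libraries had 23, 32, 33 and 23 counts, or 1.36, 1.78, 1.84 and 1.29 CPM. Every knockout library was below every wild-type library, and wild-type replicate 1 was the highest. Ccr4 fell by 2.12 on the log2 scale (SE 0.31, edgeR adjusted p = 0.00349), to 0.23 of the wild-type level (exact permutation p = 0.0286). T cell markers fell beside it, with a median log2 fold change of -1.65 over 10 genes, and were also highest in wild-type replicate 1. So, within the wild-type group, were marker sums of natural killer and CD8 T cells, plasma cells and plasmacytoid dendritic cells. The sums of erythroid cells and of basophils and mast cells were also highest there within that group. Within the knockout group T cell markers were highest in replicate 1 (227 CPM) and Ccr4 in replicate 3, and both were lowest in replicate 4. The part of T cells in the fall of Ccr4 was not tested.

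Cxcr6, the receptor for CXCL16 on effector T cells and natural killer T cells, did not pass. It had 8.78, 4.41 and 5.37 CPM in the wild-type group and 4.85, 2.84, 3.23 and 4.54 CPM in the knockout libraries. The ranges overlapped through wild-type replicate 2, which lay below knockout replicates 1 and 4. Wild-type replicates 1 and 3 lay above every knockout library, and replicate 1 was the highest. The log2 fold change was -0.68 (95% interval -1.35 to -0.01, edgeR adjusted p = 0.151, exact permutation p = 0.114), and it was -0.34 without wild-type replicate 1. The fold change was thus as large as that of S1pr4, with an SE of 0.29 against 0.17. Cxcr6 lies inside Fyco1 on the opposite strand with no shared exon, and Fyco1 was at 57.7 and 72.6 CPM. Without strand information, unspliced Fyco1 reads over Cxcr6 exons cannot be told apart from Cxcr6 reads.

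Ccr1, a receptor of monocytes, neutrophils and macrophages for CCL3, CCL5, CCL6 and CCL9, was the one that rose. It had 43.1, 50.2 and 42.4 CPM in the wild-type group and 135, 138, 75.7 and 162 CPM in the knockout libraries. The groups did not overlap, and knockout replicate 3 came nearest to the wild-type values. Ccr1 rose 2.82-fold (log2 fold change 1.5, SE 0.24, edgeR adjusted p = 0.0065), with an exact permutation p of 0.0571. Monocyte markers moved with it: 4 of 8 rose, 1 fell, and their sums ran from 3177 to 4354 CPM and from 4394 to 7719 CPM. Within the knockout group the monocyte sum was also lowest in replicate 3 (4394 CPM) and highest in replicate 4 (7719 CPM). Neutrophil, plasma cell, erythroid, megakaryocyte and platelet, and basophil and mast cell sums were highest in that knockout library too. Within the wild-type group the order differed: Ccr1 was highest in replicate 2 (50.2 CPM), where the monocyte sum was lowest (3177 CPM). The part of monocytes in the rise was not tested. Neutrophil markers were lower, at 8005 to 12037 CPM against 13570.1 to 16792 CPM.

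The receptors differed in how they varied among replicates. Knockout replicate 4 was the lowest knockout library for 5 receptors, Gpr183, Cxcr3, Ccr4, Ccr6 and S1pr4, and the highest for Cxcr4 and Ccr1. Knockout replicate 3 was the highest for 4, Gpr183, Ccr4, Ccr6 and S1pr4, and the lowest for Ccr1. B cell marker sums had the same extremes, at 1577 CPM in knockout replicate 4 and 3708 CPM in knockout replicate 3. Knockout replicate 4 stood apart in general, with a mean chi-square per gene of 44.9 to 67.1 against the other knockout libraries, where those 3 differed among themselves by 24.3 to 32.2 and sampling noise alone gives 1. Without it, the number of receptors called was again 6. Wild-type replicate 2 was the highest wild-type library for 6 receptors, and wild-type replicate 1 for Ccr4 and Cxcr6. Gpr183 and S1pr4 had the most similar profiles of any pair, with a root mean square difference of 0.17 in centred log2 CPM over the 7 libraries.

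Levels of different genes were compared per length, as the deposited FPKM. Cxcr4 was first in both groups, with 187 ± 27.7 FPKM in the wild-type libraries (n = 3) and 132 ± 14.5 FPKM in the knockout libraries (n = 4). It made up 59.7% and 52.9% of the summed FPKM of the 8 receptors. The wild-type order then ran S1pr4 (40.4 FPKM), Ccr6 (28.8), Cxcr3 (18.4), Gpr183 (16.8), Ccr1 (15.8), Cxcr6 (3.17) and Ccr4 (2.19). The ranges of S1pr4 and Ccr6, of Cxcr3 and Gpr183, of Gpr183 and Ccr1 and of Cxcr6 and Ccr4 overlapped. Within libraries, S1pr4 was above Ccr6, Cxcr3 above Gpr183 and Cxcr6 above Ccr4 in 3 of 3 wild-type libraries, and Gpr183 was above Ccr1 in 2 of 3. Ccr1 stood in the sixth place in the wild-type group and in the second in the knockout libraries, at 44.6 ± 12.7 FPKM, where its range overlapped that of S1pr4 (25.2 ± 4.97 FPKM) and it was the higher of the pair in 3 of 4 libraries. Its share of the summed FPKM was 5.08% ± 0.34 and 18% ± 5.33 (exact permutation p = 0.0571). Ccr4 was last in both groups and lay at 0.50 ± 0.09 FPKM in the knockout libraries, below every Cxcr6 value there.

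**Figure D3:**
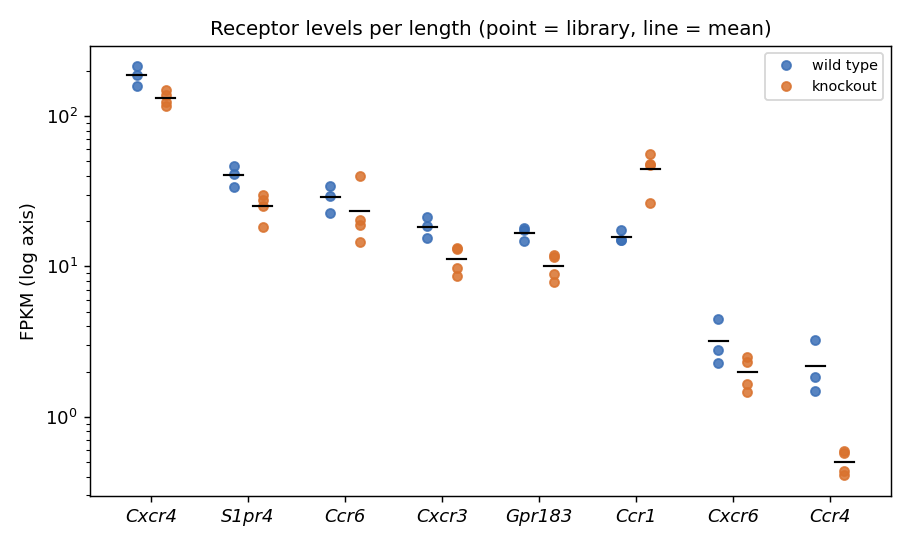
Deposited FPKM of the 8 receptors (log axis), with 1 point per library and the mean as a line, in the order of the wild-type means. Cxcr4 led in both groups, and Ccr1 moved from a mean of 15.8 to 44.6 FPKM while the other means were lower in the knockout libraries.

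Of 36 other chemoattractant receptors, 34 were tested. Of these, 6 rose, 5 fell and 23 did not pass (32.4% called, against 15.5% of all tested genes, median log2 fold change -0.17). Those of monocytes and dendritic cells moved in both directions. Ccr2, which releases monocytes from the bone marrow, went from 270.0 ± 104 to 874 ± 202 CPM (log2 fold change 1.69, edgeR adjusted p = 0.00883). Xcr1, the receptor of cross-presenting dendritic cells, rose by 1.75, Ccrl2, which binds chemerin, by 1.48, and Fpr2, a formyl peptide receptor of phagocytes, by 0.82. Ackr1, an atypical receptor of red cells and vessels, rose from 0.53 to 2.46 CPM. Among those that fell, Ackr4, which removes CCL19 and CCL21, went from 5.44 ± 1.35 to 0.81 ± 0.16 CPM (log2 fold change -2.74, edgeR adjusted p = 0.000842). S1pr2, which confines cells to the germinal centre, fell by 0.89 (edgeR adjusted p = 0.00567). Cx3cr1, a receptor of patrolling monocytes and in the monocyte marker list, fell from 66.9 ± 28.8 to 28.7 ± 8.78 CPM (log2 fold change -1.22, edgeR adjusted p = 0.0376). The call of Cx3cr1 held in 1 of the 7 fits that leave out a library, that without knockout replicate 3. Cxcr5, which was no member of the named set, had 238 ± 38.0 and 136 ± 50.6 CPM and did not pass (edgeR adjusted p = 0.109), although its ranges did not overlap. Cxcr5 is in the Tfh marker list, whose wild-type sum had a mean of 422 CPM. In knockout replicates 1 to 4 it had 172, 120, 180 and 71.8 CPM, and B cell marker sums were 3659, 2753, 3708 and 1577 CPM. The part of B cells in the level of Cxcr5 was not tested. The number called lower was 2 without wild-type replicate 1 or knockout replicate 2, 3 without wild-type replicate 2, wild-type replicate 3 or knockout replicate 1, and 8 without knockout replicate 3. Ccrl2 was not called when any 1 wild-type library or knockout replicate 1 was left out (edgeR adjusted p of 0.0527 to 0.104). Ccr2 and Xcr1 also stand in the marker lists of monocytes and conventional dendritic cells, and Ccr9, which fell, in that of plasmacytoid dendritic cells.

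**Figure D4:**
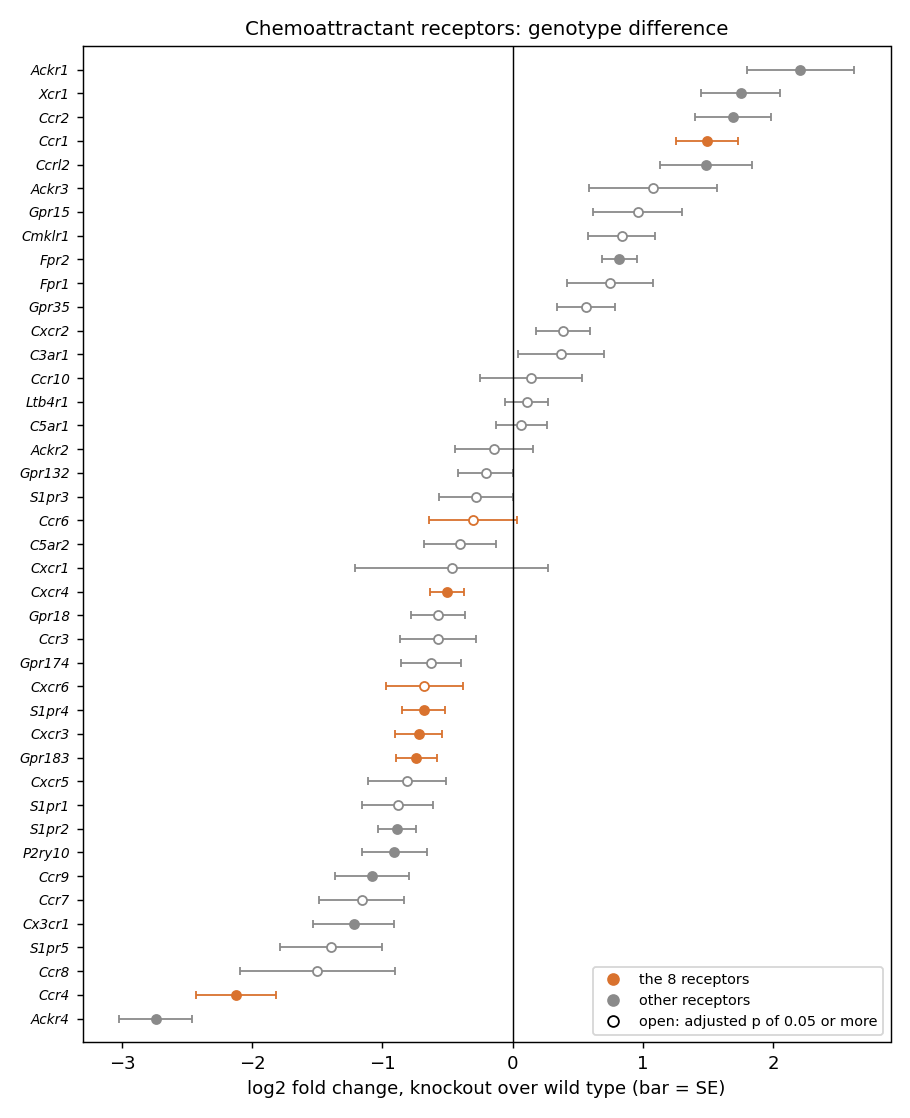
Log2 fold change of knockout over wild type with its SE for the 8 receptors (orange) and other tested receptors (grey), filled where the adjusted p was under 0.05. Ccr1 lies near Ccr2, Xcr1 and Ccrl2 at the top, Ccr4 lies next to Ackr4 at the bottom, and 6 of the 8 lie between -0.74 and -0.30.

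Ccr1 and Cxcr6 belong to a cluster of receptor genes on chromosome 9, and their neighbours moved in both directions. Within 250 kb of the Ccr1 start (chromosome 9, 123962124 to 123968692), Xcr1 and Ccr2 rose. Ccr3, 59.9 kb from Ccr1 and a receptor of eosinophils, had a log2 fold change of -0.58 and did not pass (edgeR adjusted p = 0.214). Around Cxcr6 (123806475 to 123811760), 4 of 8 tested genes rose, namely Xcr1, Ccr1, the amino acid transporter gene Slc6a20a and the predicted gene Gm10052. In the same window 1 fell, Ccr9, a homing receptor for the small intestine, from 7.49 to 3.54 CPM (log2 fold change -1.08, edgeR adjusted p = 0.0341). Slc6a20a was at 0.49 and 2.12 CPM, so its change rests on few counts. The call of Slc6a20a ended when any 1 wild-type library was left out. That of Gm10052 held in 1 of the 7 such fits, without knockout replicate 3, and that of Ccr9 in 2, without wild-type replicate 2 or knockout replicate 4. Of the 16 tested receptors on chromosome 9, from both sets, 5 rose and 5 fell, and of the 26 elsewhere 2 rose and 5 fell. Over all tested genes, 8.71% rose and 6.83% fell.

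**Figure D5:**
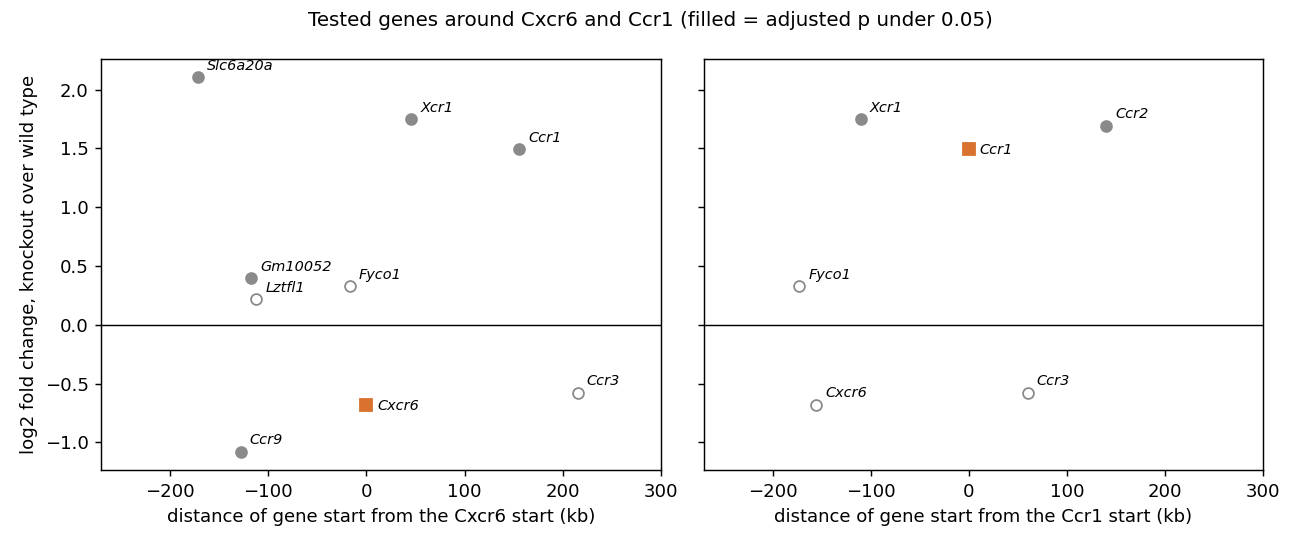
Log2 fold change of tested genes that start within 250 kb of Cxcr6 (left) or Ccr1 (right), against the distance in kb, with the receptor itself as a square and filled circles at an adjusted p under 0.05. Xcr1, Ccr1 and Ccr2 lie between 1.5 and 1.75, while Cxcr6, Ccr3 and Ccr9 lie below 0.

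Over all tested genes 15.5% were called, and the called neighbours of the other receptors are given here with the number tested in that window. Clybl rose near Gpr183 (1 of 7 tested genes), and near Ccr4 the lysosomal galactosidase gene Glb1 fell by 0.49 and Crtap rose by 0.53 (7 tested). The noncoding gene model Gm16702 fell near Ccr6 (1 of 7), and near S1pr4 Mfsd12 rose and Tjp3, Tbxa2r and Gipc3 fell (28 tested). None of the 4 tested genes near Cxcr3 and the 1 near Cxcr4 passed edgeR's test. Glb1 and Mfsd12 passed whichever library was left out, whereas Crtap passed in none of these 7 fits. The calls of Clybl, Gm16702, Tjp3, Tbxa2r and Gipc3 ended in 3, 3, 6, 4 and 6 of them.

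Ligands and the enzymes that make or remove lipid ligands were measured next to their receptors. Of 22 genes, 15 were tested, and 4 rose, none fell and 11 did not pass (26.7% called, against 15.5% of all tested genes, median log2 fold change 0.34). Cxcl9 and Cxcl10, the ligands of the receptor gene Cxcr3 that fell, rose from 11.2 ± 7.24 to 53.4 ± 18.1 CPM (edgeR adjusted p = 0.0224) and from 6.27 ± 0.86 to 19.0 ± 6.55 CPM (edgeR adjusted p = 0.0116). For sphingosine-1-phosphate, the ligand of S1PR4, the kinase gene Sphk1 rose from 2.19 ± 0.41 to 24.9 ± 7.0 CPM and the exporter gene Mfsd2b from 6.51 ± 0.63 to 43.1 ± 11 CPM (edgeR adjusted p = 0.000308 and 0.000331). Red cells use both genes to supply blood with the lipid, and erythroid markers rose in the same libraries, 8 of 8, from at most 196 to at least 687 CPM. Their part in the rise of Sphk1 and Mfsd2b was not tested. The exporter gene of vessels, Spns2, had a log2 fold change of -0.49 (edgeR adjusted p = 0.28) and the lyase gene Sgpl1 of 0.20 (0.254).

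For Ccr1, the ligand genes Ccl6, Ccl9, Ccl3 and Ccl5 did not pass, and Ccl9 had 92.1 ± 19.9 and 163 ± 63.2 CPM (edgeR adjusted p = 0.106). Cxcl16, for Cxcr6, had 5.30 and 6.43 CPM, and Ccl22, for Ccr4, 2.46 and 3.12 CPM, with adjusted p-values of 0.623 and 0.498. The genes Cxcl12, Ccl20, Ccl17, Ccl7, Ch25h, Cyp7b1 and Hsd3b7 did not reach the filter on low counts, and none was above 0.61 CPM in any library. These include the ligand genes of CXCR4 and CCR6 and enzymes that make the oxysterols bound by GPR183, which stromal cells are known to supply. The number of ligand genes called higher was 2 without wild-type replicate 2, where Cxcl9 and Cxcl10 were not called (edgeR adjusted p = 0.0901 and 0.0613). The call of Cxcl9 was also lost without wild-type replicate 3 or knockout replicate 2. Without wild-type replicate 3, 1 gene was called lower.

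Of 33 tested genes that carry or end the receptor signal, 1 rose, 3 fell and 29 did not pass (12.1% called, against 15.5% of all genes, median log2 fold change -0.09). The library ranges did not overlap for 14 of the 33, against 30.0% of all tested genes. The 3 that fell encode RGS proteins, which switch off G protein signalling. The other tested RGS genes of the list, Rgs1, Rgs2, Rgs14, Rgs18 and Rgs19, did not pass (edgeR adjusted p of 0.0988 to 0.921). Rgs13, typical of germinal centre B cells, had 26.3, 17.3 and 22.3 CPM in the wild-type and 6.80, 1.61, 2.28 and 3.42 CPM in the knockout libraries (log2 fold change -2.64, edgeR adjusted p = 0.00774). Rgs16 fell by 1.84 (edgeR adjusted p = 0.00899) and Rgs10 by 1.01 (0.0237). Arrb1, which encodes a beta-arrestin that uncouples and internalises receptors, rose from 112 ± 13.6 to 163 ± 18.1 CPM (log2 fold change 0.54, edgeR adjusted p = 0.0185). The other beta-arrestin gene, Arrb2, had 196.5 ± 8.35 and 167.9 ± 7.20 CPM and did not pass (log2 fold change -0.23, edgeR adjusted p = 0.0921), although its ranges did not overlap. Arrb1 was not called without wild-type replicate 2 or 3, which left no gene called higher, and 2 were called higher without knockout replicate 1 or 3. Rgs10 was not called without wild-type replicate 1, wild-type replicate 2 or knockout replicate 2.

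By the smallest root mean square difference in centred log2 CPM over the 7 libraries, the genes most like each receptor were found among 9328 genes with a mean of at least 10 CPM. The 7 libraries share the genotype split, so this likeness is a description. S1pr4 was most like Hip1r (0.04), Smim14 (0.06) and Prkcb (0.06), and Gpr183 like Syt11 (0.05), Arhgap25 (0.06) and Nfatc1 (0.08). Cxcr3 was most like Bhlhe40 (0.07), Klf2 (0.11) and D2hgdh (0.11), and Cxcr4 like Rflnb (0.10), Pglyrp1 (0.10) and Sun2 (0.12). The profile of Ccr4 was less closely matched, by Themis (0.22), Nt5e (0.24) and Ctla4 (0.25), genes with log2 fold changes of -1.94, -2.07 and -1.95. Ccr1 was most like Papss2 (0.17), F10 (0.17) and Mlkl (0.20), whose log2 fold changes were 1.49, 1.48 and 1.5. Ccr6 was closest to Dab2ip (0.14), Zdhhc18 (0.17) and Cdk5r1 (0.18), and Cxcr6 to Ifi209 (0.17), Tlr7 (0.19) and Slamf7 (0.21). Of the genes most like Ccr4, Themis and Ctla4 are T cell genes, and Pglyrp1, near Cxcr4 in profile, encodes a granule protein of neutrophils. Pglyrp1 itself did not pass (edgeR adjusted p = 0.0685), and Rflnb and Sun2 were not assigned to a cell type.

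In the authors' deposited table, the same 6 receptors had an adjusted p under 0.05, where 12.5% of the genes listed there did. The authors' deposited table gives log2 fold changes of -2.13 for Ccr4 (adjusted p = 3.7e-08) and 1.5 for Ccr1 (adjusted p = 1.25e-08). For Ccr6 and Cxcr6 the authors' deposited table has adjusted p-values of 0.591 and 0.126.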

How the data were processed

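Gene expression was measured by bulk RNA sequencing in 7 mouse spleen libraries, 3 wild type and 4 knockout, grouped by their titles. The authors deposited whole-number counts per gene, FPKM values and their own comparison with log2 fold change and p-value columns, per the file headers. Per the labels' protocols, RNA came from a Qiagen column kit and was made into NEBNext Ultra libraries. Coordinates follow GRCm38 (mm10), a build named in the submitters' processing notes. The sources used here name no aligner, counter or strand setting. Without strand, reads of overlapping genes cannot be told apart. The sides of the authors' comparison were fixed by their log2 fold changes, whose sign was that of the counts in 15779 of 15795 genes.

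Counts were tested with edgeR 4.0.16 in R 4.3.3 (TMM, filterByExpr, robust quasi-likelihood F-test, genotype as the only term), with Benjamini-Hochberg adjustment over 15795 genes and a threshold of 0.05. CPM are TMM-scaled counts, given as mean ± SD, and the SE is the log2 fold change divided by the root of F. For single values, a two-sided exact permutation test was run on the size of the difference in means over 35 splits (smallest p 0.0286). Totals of 16789158 to 18375275 counts per library set the counting precision. No 2 libraries agreed within sampling noise. Nothing beyond the word biological replicate says that libraries came from separate mice, so p-values measure the spread between these libraries. The edgeR step was run on simulated counts, with 100 genes changed by 1 on the log2 scale and 100 by 2. It recovered 76% and 93% of them, with 14 false calls among 183. The falls of Cxcr4, Gpr183, S1pr4 and Cxcr3 were smaller than these changes, so their recovery was not simulated. Promoters are RefSeq windows (GRCm38.p6), 250 bases before each start, and all 8 receptors matched by symbol. Protein sequences were not used here, so the protein comparison that had been planned was not made.

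The members, lists, markers and alternatives were chosen with earlier results of these data known. Named genes were the 8 receptors, Stk4, Stk3 and Mst1, up to 8 called genes per list by smallest p, called genes starting within 250 kb of a receptor and the 3 most similar genes per receptor. Genes outside this rule (Cxcr5, Cx3cr1, Ccr3, Fyco1, Ubac2, Arrb2 and the uncalled ligand and RGS genes) were named after their values were seen. Alternatives were DESeq2 1.42.0, limma 3.58.1 (voom with quality weights, and log2 FPKM with a pseudocount of 1 or 0.1), other scalings and filters, a replicate block and leaving out each library. A gene that is counted in the list of other receptors is not reported here by name and is left out of the plots.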

Additional observations from a re-analysis of the deposited data

Results flagged for a closer look

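Of 40 values compared among the 4 knockout libraries (receptors, named list genes and marker sums), 1 had a library far from the rest. The 6 basophil and mast cell markers summed to 454.8 CPM in knockout replicate 4 and to 131.6 to 151 CPM in the other knockout libraries, a gap of 0.94 of the whole range. A library was flagged when its gap reached a cutoff that chance reaches in about 1 of 20 groups. With 40 values compared, 1 flag can arise by chance. Among the receptors, Ccr6 ranged from 34.2 to 93.0 CPM in the knockout group without reaching this criterion.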

How the results depend on the processing

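Over 18 alternatives, including the removal of each library, the direction of every receptor was kept. Ccr4 (log2 fold change -2.34 to -1.05) and Ccr1 (1.31 to 1.68) passed in all 18, Gpr183 in 15, Cxcr3 and S1pr4 in 14, Cxcr4 in 11, and Ccr6 and Cxcr6 in 1 each. Without single libraries the log2 fold changes ran from -0.605 to -0.399 for Cxcr4, -0.83 to -0.635 for Gpr183, -0.836 to -0.602 for Cxcr3, -0.789 to -0.554 for S1pr4 and -0.688 to -0.126 for Ccr6. The number of receptors called ran from 2 to 7 (lower in knockout, 1 to 6), of other receptors lower from 2 to 8, of ligand genes higher from 2 to 5 and lower from 0 to 1, and of signalling genes higher from 0 to 2. Genes called over the whole table ran from 1050 to 2553 (639 to 1415 higher, 411 to 1138 lower), against 2455 from all libraries. The count was 1326, 1050 and 1161 when wild-type replicate 1, 2 or 3 was left out, and 1384 when knockout replicate 2 was.

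On log2 FPKM plus 1 without a filter, 1016 genes were called (566 higher, 450 lower), of the receptors 2 (1 lower), of other receptors 2 lower and of signalling genes 0 higher. There Cxcr4 was at -0.495 (adjusted p = 0.107), Gpr183 at -0.698 (0.0601), Cxcr3 at -0.681 (0.0888) and S1pr4 at -0.671 (0.0972). With the filter, Cxcr4 was at -0.495 (pseudocount 1, adjusted p = 0.0615) and -0.498 (0.1, 0.0606). The cause was not tested. With limma-voom, 3908 genes were called (1859 lower), Cxcr6 passed at -0.869 (adjusted p = 0.0488), 12 other receptors were lower, and 3 signalling genes were higher and 5 lower. With DESeq2, 9 other receptors were lower and 2 signalling genes higher. Without the filter on counts 3 other receptors were lower, and without TMM 2 signalling genes were higher.

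Same-numbered libraries of the groups had deviations correlated at -0.05, 0.03 and 0.16, so the numbers were not taken as pairs, and not every library was most like its own number. With the replicate block 2119 genes were called, the same number of receptors (6) passed, and 0 signalling genes were higher. CPM by total library size changed no direction; the neutrophil marker difference of -5710 CPM then had an exact permutation p of 0.0286. The order of receptors by FPKM was that by CPM per length. Low counts limit Ccr4 (459 over all libraries) and Cxcr6 (587).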
